A study of Mus musculus with 12 samples.

Results

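The genes described here are Nfe2l2, which encodes the transcription factor NRF2, Keap1, which encodes its inhibitor, and 8 genes known as NRF2 targets in antioxidant defence: Nqo1, Gclc, Gclm, Gsr, Txnrd1, Srxn1, Hmox1 and Osgin1. They were chosen by symbol, with earlier results of these data known. Each matched 1 row of the deposited table, so 10 of its 13267 genes are members. Livers came from 12 C57BL/6 mice that had been made obese on a high-fat diet and had hepatic steatosis, the build-up of fat in the liver. In the control group (n = 6) mice carried a scaffold without the compound under the skin, and in the other group (n = 6) mice received 4-HPAA (4-hydroxyphenylacetic acid, a small phenolic acid that gut bacteria can form from dietary polyphenols) by the same route, both for 6 weeks. The labels give no age, sex, dose or batch, and all 12 mice share the diet, so no lean mouse is available as a reference. The only comparison in the design is 4-HPAA against control. Each of the 12 samples is taken here as the liver of a different mouse, which the labels, numbering samples within a group, do not state. The spread that a p-value is set against may therefore in part be technical.

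In unstressed cells KEAP1 binds NRF2 and hands it to an ubiquitin ligase built on CUL3, and NRF2 is degraded. Electrophiles and oxidants modify cysteines of KEAP1, NRF2 then accumulates, enters the nucleus and, paired with a small MAF protein, binds antioxidant response elements (AREs) in front of its targets. In liver these targets supply glutathione, keep thioredoxin reduced, reduce quinones and help dispose of heme and drugs. NRF2 itself is controlled mainly as a protein, which messenger RNA does not show.

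Values are called normalised read counts here, as they appear to be the authors' read counts scaled between libraries. Their total was 22869813 to 25255447 per library, and the reads behind it were estimated at 22389551 to 26924668. The hepatocyte product albumin (Alb) took 7.59% to 8.72% of the total in controls and 4.98% to 7.58% with 4-HPAA. In this share every 4-HPAA library lay below every control, by a narrow margin for replicate 4. In the normalised counts of Alb the groups overlapped, with 4-HPAA replicate 4 above control replicate 5. The log2 difference of Alb was -0.38 ± 0.10 (SE; limma adjusted p of 0.148), while 3 of 6 hepatocyte markers were at positive and 3 at negative differences. The part of albumin's share in the results was not tested. Replicate 3 of the 4-HPAA group was least like the rest: the median Pearson r of its log2 values with the other 11 libraries was 0.969, against 0.978 to 0.986 for every other library. Marker genes of macrophages differed widely between control mice, with summed values of 3145 to 3903 in control replicates 1, 2 and 3 and 7838 to 12014 in replicates 4, 5 and 6. They lay between 4479 and 7312 with 4-HPAA. In whole liver, fewer cells of a type and less RNA per cell cannot be told apart. Each gene stands under a single transcript ID, and for Keap1, Gsr, Txnrd1 and Hmox1 that ID is a non-coding isoform of the gene. The sources used here do not say whether a value counts reads of the gene or of that isoform.

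Upstream sequence is shown for the 3 members with the smallest p, Osgin1, Txnrd1 and Nqo1, and for Srxn1, whose stretch holds the most motif matches. Each line gives the 150 bases before a RefSeq start site on GRCm38.p6, read in the direction of the gene. Capitals mark matches to the ARE core TGACNNNGC or to the related AP-1 site TGANTCA, searched on both strands in the 250 bases before each start, where the motifs can share letters. The Osgin1 stretch (chr8:119436997-119437146, plus strand) lies inside the longer GENCODE gene, the Txnrd1 stretch (chr10:82859056-82859205, plus strand) belongs to 1 of 3 listed starts, and the others are Srxn1 (chr2:152105374-152105523, plus strand) and Nqo1 (chr8:107403206-107403355, minus strand).
Osgin1: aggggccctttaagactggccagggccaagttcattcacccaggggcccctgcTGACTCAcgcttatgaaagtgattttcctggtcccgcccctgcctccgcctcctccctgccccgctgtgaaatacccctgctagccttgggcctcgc
Txnrd1: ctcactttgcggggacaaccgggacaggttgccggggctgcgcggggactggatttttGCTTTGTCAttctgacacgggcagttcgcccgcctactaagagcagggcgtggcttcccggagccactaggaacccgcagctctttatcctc
Srxn1: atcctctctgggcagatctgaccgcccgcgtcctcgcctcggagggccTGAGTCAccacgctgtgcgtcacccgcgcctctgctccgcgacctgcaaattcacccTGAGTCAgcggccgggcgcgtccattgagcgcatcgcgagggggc
Nqo1: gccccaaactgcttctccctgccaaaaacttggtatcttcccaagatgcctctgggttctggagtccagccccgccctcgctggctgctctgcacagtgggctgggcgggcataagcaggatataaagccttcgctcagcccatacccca

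The RefSeq table held 9 windows for 7 members. An ARE core was found in 3 of them, 240 bases before the start of Nfe2l2, 134 before that of Gclm and 92 before the Txnrd1 start shown, where the last 2 read on the opposite strand. Of all 32851 windows, 10.2% hold such a core. An AP-1 site was found in 2 member windows, at 97 bases before the Osgin1 start and at 102 and 45 before that of Srxn1, against 6.75% of all windows. The Srxn1 site at 45 bases reads on as TGAGTCAGC, which departs from the ARE core only by G in place of C. A looser core was not searched. The 2 genes with the largest positive differences (Osgin1 and Txnrd1) thus carry different motifs in the windows shown, and Nqo1, with the largest negative difference, carries neither. Of the 3 Txnrd1 windows only the window shown holds a match, so this contrast depends on which start is taken. A match is a description of letters and no evidence of binding.

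No member changed past the threshold with 4-HPAA. The 3 of 10 with an unadjusted p under 0.05 in limma did not all move the same way. Osgin1, an oxidative stress-induced growth inhibitor, averaged 1.88 times and Txnrd1, the cytosolic thioredoxin reductase, 1.17 times its control mean, while Nqo1, the quinone reductase, averaged 0.639 times. The other 7, among them both subunits of the enzyme that limits glutathione synthesis, had log2 differences within 0.2 of zero. In limma, fitted to 12720 genes, 0 members had a Benjamini-Hochberg adjusted p under 0.05, as had 0% of all genes tested. At an unadjusted p under 0.05 there were 3 of 10 members, 2 higher and 1 lower, against 14.8% of all genes (7.26% higher and 7.56% lower). Of the members, 4 had positive and 6 negative differences (all genes: 49.8% and 50.2%), and their median log2 difference was -0.04, against -0.00 over all genes. The values of the 2 groups overlapped for all 10 members, where 0.66% of all genes had groups that did not overlap.

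**Figure D1:**
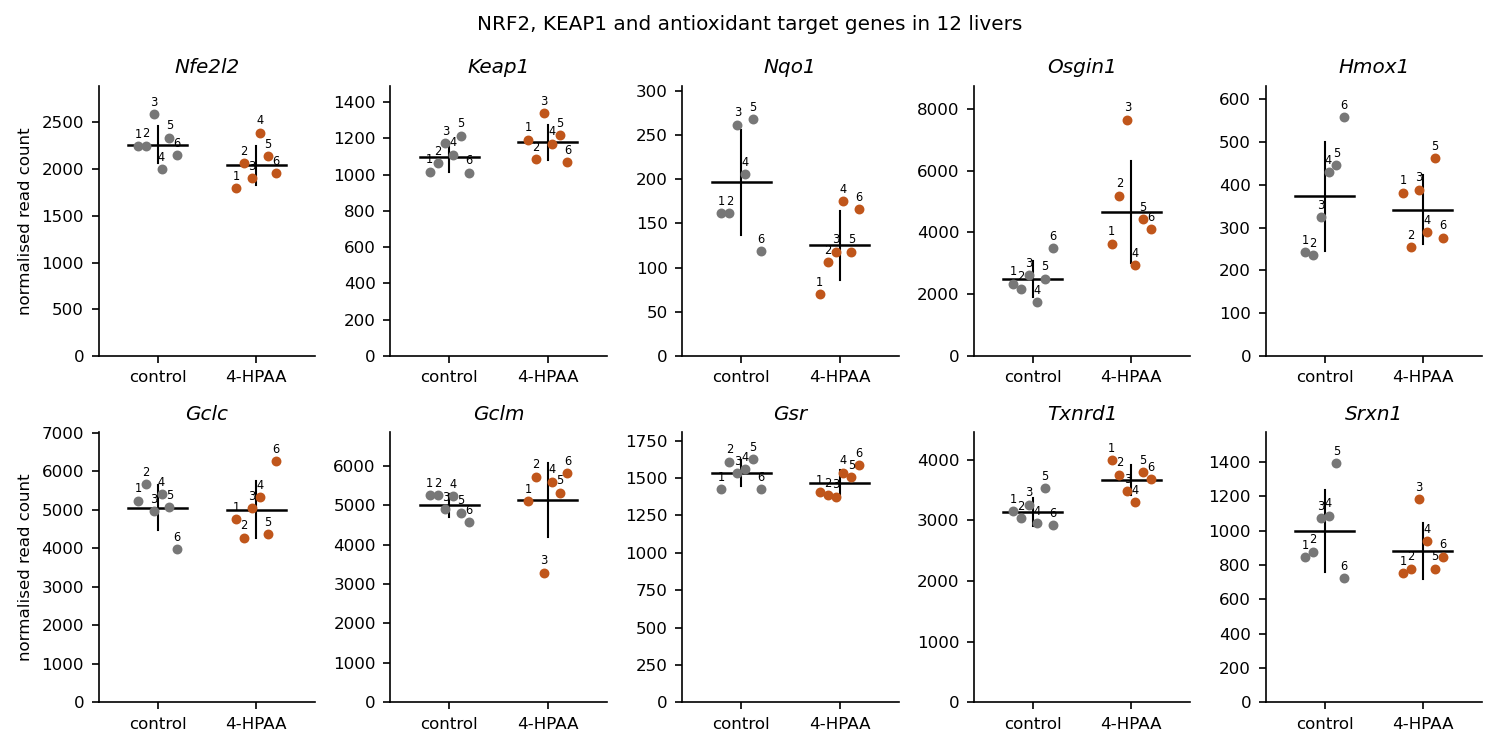
Normalised read count (vertical axis, from 0) of each gene in 6 control (grey) and 6 4-HPAA (orange) livers, with the replicate number at each point, and the mean and SD as lines. Osgin1 was above every control in 5 of 6 4-HPAA livers, Txnrd1 in 4, and Nqo1 was below every control in 4.

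**Figure D2:**
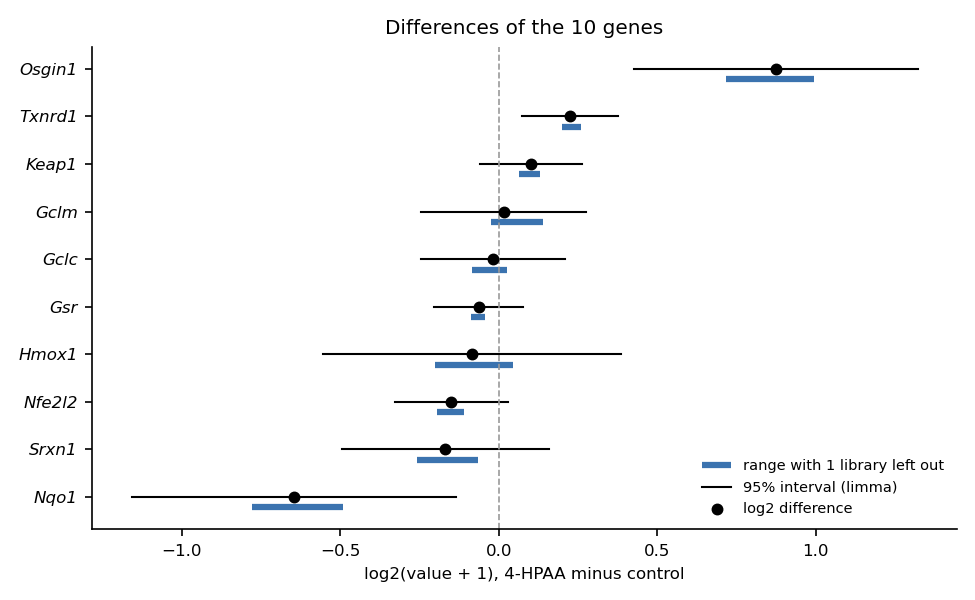
Log2 difference, 4-HPAA minus control (horizontal axis), of the 10 genes with the 95% interval of limma and, in blue, the range when 1 library is left out. The intervals of Osgin1, Txnrd1 and Nqo1 lie to one side of 0, and those of the other 7 include it.

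Nfe2l2 (chromosome 2, 75675513 to 75704641, minus strand, GRCm38, GENCODE M21) tended to lower values with 4-HPAA. Its normalised read counts in control replicates 1 to 6 were 2246, 2253, 2588, 2001, 2336 and 2152, and with 4-HPAA they were 1795, 2065, 1905, 2389, 2142 and 1957. Only 4-HPAA replicate 4 lay above the control mean, and 3 of 6 lay below every control. The group means of 2263 ± 196 and 2042 ± 209 (SD, n = 6 each) gave -0.15 ± 0.08 (SE) as log2 difference, with a limma adjusted p of 0.419. Without 4-HPAA replicate 4 the difference was -0.20.

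Keap1 (chromosome 9, 21229730 to 21239361, minus strand), the substrate adaptor that presents NRF2 for degradation, tended the other way. Control values were 1016, 1065, 1176, 1110, 1215 and 1012, and 4-HPAA values 1193, 1087, 1338, 1172, 1219 and 1071. The ranges overlapped, with 2 of 6 4-HPAA livers above every control. The log2 difference was 0.10 ± 0.08 (SE; limma adjusted p of 0.56), and 0.06 without 4-HPAA replicate 3. An antisense gene, Gm16754, overlaps the locus, so that reads of both could be joined if the counting ignored strand.

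The ratio of Nfe2l2 to Keap1 within each liver, which does not depend on how a library was scaled, had a control mean of 2.06 ± 0.164 and a 4-HPAA mean of 1.74 ± 0.236 (SD over 6 livers). It was 1.80 to 2.21 in controls and 1.42 to 2.04 with 4-HPAA, where replicates 3 and 1 had the lowest values, 1.42 and 1.505. The log2 ratio was lower by a difference of -0.25 ± 0.09 (SE), with p = 0.0238 in an exact two-sided permutation test and 0.0357 after Benjamini-Hochberg adjustment over the 3 ratios tested. This call was lost without any 1 of control replicates 1, 2, 3 and 6 (exact permutation, adjusted p = 0.0747, 0.0682, 0.0747 and 0.0682) or 4-HPAA replicates 1, 3 and 5 (0.0649, 0.0649 and 0.0552). It was also lost with exact sign flips within pairs of equal replicate number (adjusted p = 0.188). The ratio compares RNA counted under the 2 IDs, where that of Keap1 is a non-coding isoform, and says nothing of the proteins.

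Nqo1 (chromosome 8, 107388225 to 107403206, minus strand) encodes the NADPH-dependent reductase of quinones that is widely used as a readout of NRF2 activity. Its control values were 162, 162, 262, 206, 268 and 119, and its 4-HPAA values 70, 106, 118, 175, 118 and 166. All 6 4-HPAA livers lay below the control mean and 4 below every control, yet 4-HPAA replicates 4 and 6 lay above control replicates 1, 2 and 6. The means were 196.5 ± 59.8 and 125.5 ± 39.1 (SD, n = 6 each), which makes -0.65 ± 0.24 (SE) on the log2 scale. Its unadjusted p in limma was 0.0168 and its adjusted p 0.238. With 1 library left out the difference stayed between -0.78 and -0.49, and the limma adjusted p between 0.119 and 0.459. Nqo1 was the least abundant member in these livers, where counting error is largest relative to the value.

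Osgin1 (chromosome 8, 119434124 to 119446256, plus strand), which encodes a protein linked to growth arrest under oxidative stress, had the largest difference of the members. Control values were 2340, 2183, 2608, 1741, 2502 and 3490, and 4-HPAA values 3635, 5191, 7652, 2935, 4437 and 4102. Every 4-HPAA liver lay above the control mean and 5 of 6 above every control. Replicate 4, at 2935, was within the control range below control replicate 6. The means were 2477 ± 582 and 4659 ± 1651 (SD, n = 6 each). The log2 difference was 0.87 ± 0.21 (SE), a fold change of 1.83 with a 95% interval of 1.35 to 2.50. Osgin1 ranked 76 of 12720 genes by p, with an unadjusted limma p of 0.000935 and an adjusted p of 0.142. It passed without 4-HPAA replicate 4 (limma adjusted p = 0.0316) and with array weights (0.0404), and over all 22 alternatives the adjusted p ran from 0.0316 to 0.297. Without 4-HPAA replicate 3, which held the highest value, the difference was 0.72, with a limma adjusted p of 0.132.

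Hmox1 (chromosome 8, 75093621 to 75100589, plus strand), the inducible heme oxygenase that splits heme into biliverdin, iron and carbon monoxide, showed no difference larger than its spread. Control values were 243, 236, 325, 430, 447 and 558, and 4-HPAA values 382, 254, 389, 290, 463 and 277. The log2 difference was -0.08 ± 0.22 (SE; limma adjusted p of 0.892), with an interval of the fold change from 0.681 to 1.31. Control replicates 4, 5 and 6 were high and 1, 2 and 3 low, the same division as in the macrophage markers. In the 4-HPAA livers, too, the 3 highest Hmox1 values (463, 389 and 382) came with the 3 highest macrophage sums (7312, 6504 and 5722). Of the 12 macrophage markers, all in the table, 4 were at positive and 8 at negative differences with 4-HPAA, with a median of -0.05 and 0 at an unadjusted p under 0.05 in limma. Their part in the Hmox1 values was not tested.

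None of the 3 genes of glutathione supply differed by more than the spread between livers. Gclc (chromosome 9, 77754535 to 77794485, plus strand), the catalytic subunit of glutamate-cysteine ligase, had control values of 5236, 5669, 4955, 5412, 5070 and 3978 and 4-HPAA values of 4748, 4277, 5039, 5333, 4363 and 6254. The highest and the lowest values fell in replicate 6 of either group, and the log2 difference was -0.02 ± 0.11 (SE; limma adjusted p of 0.954). Its 95% interval runs from 0.844 to 1.16 times the control level.

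Gclm (chromosome 3, 122245557 to 122270732, plus strand), the modifier subunit that raises the activity of GCLC, had control values of 5255, 5246, 4905, 5226, 4806 and 4560. With 4-HPAA it was at 5096, 5719, 3290, 5590, 5318 and 5807, so that 4 livers lay above every control and replicate 3 below every control. The log2 difference was 0.02 ± 0.12 (SE; limma adjusted p of 0.967). Without replicate 3 it was 0.14, with an unadjusted limma p of 0.0447 and an adjusted p of 0.247. The sign of both subunits' differences turned under some alternatives. The pseudogene Gm6061 overlaps the Gclm locus on the same strand and Gm17494 on the other, so reads could be divided between genes.

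The ratio of Gclc to Gclm, which reflects the balance of the 2 messages, had the same mean of 1.01 in both groups, with an SD of 0.0732 over the controls and 0.279 over the 4-HPAA livers. It reached 1.53 in 4-HPAA replicate 3 and lay between 0.748 and 1.08 in all other livers. The log2 ratio differed by -0.03 ± 0.15 (SE), with p = 0.857 in an exact two-sided permutation test, also after adjustment over 3 ratios.

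Gsr (chromosome 8, 33652523 to 33698163, plus strand), the reductase that returns oxidised glutathione to its reduced form, had the tightest values of all members. Control values were 1426, 1609, 1531, 1559, 1627 and 1427, and 4-HPAA values 1403, 1383, 1375, 1536, 1504 and 1587. In 4-HPAA replicates 1, 2 and 3 it lay just under the lowest control, and in the others within the control range. Gsr differed by -0.06 ± 0.07 on the log2 scale (SE; limma adjusted p of 0.697), and its interval covers 0.869 to 1.06 times the control level.

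Txnrd1 (chromosome 10, 82833951 to 82897712, plus strand), a selenoprotein that reduces cytosolic thioredoxin with NADPH, was the member with the second smallest p. Control values were 3147, 3035, 3260, 2950, 3534 and 2920, and 4-HPAA values 3990, 3754, 3481, 3301, 3790 and 3683. All 6 4-HPAA livers were above the control mean and 4 above every control, and replicates 3 and 4 lay below control replicate 5. The means were 3141 ± 230.3 and 3667 ± 243 (SD, n = 6 each). On the log2 scale they were apart by 0.22 ± 0.07 (SE), or 1.17-fold with a 95% interval of 1.05 to 1.30. The unadjusted limma p was 0.00672 and the adjusted p 0.199, and with 1 library left out the difference ranged from 0.20 to 0.26. The protein-coding gene Eid3 lies within the Txnrd1 locus on the same strand, so reads could be divided between the 2 genes. The 3 highest values were in 4-HPAA replicates 1, 5 and 2, the libraries with the fewest estimated reads (22389551, 23766597 and 23356898), and the part of depth in this was not tested.

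Within each liver Txnrd1 was higher relative to Gsr, the matching reductase of the glutathione system. The ratio had a control mean of 2.06 ± 0.14 and a 4-HPAA mean of 2.51 ± 0.253 (SD over 6 livers). Controls lay between 1.89 and 2.21 and 4-HPAA livers between 2.15 and 2.84, with replicate 4 alone inside the control range. The log2 ratio was higher by 0.29 ± 0.07 (SE), with p = 0.00649 in an exact two-sided permutation test and 0.0195 after adjustment over the 3 ratios. Of all single genes, 14.8% had an unadjusted limma p under 0.05. The share among other gene pairs was not computed, for this ratio or for Nfe2l2 to Keap1. For Txnrd1 to Gsr the exact permutation test gave adjusted values of 0.00649 to 0.039 with 1 library left out. Exact sign flips within pairs of equal replicate number gave an adjusted p of 0.0938. Their exact p, 0.03125, was the smallest that such flips can give. Since the ratio is taken within a library, scaling between libraries does not enter it. Txnrd1 and Gsr both stand under IDs of non-coding isoforms, so it is not known which RNA the ratio compares.

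**Figure D3:**
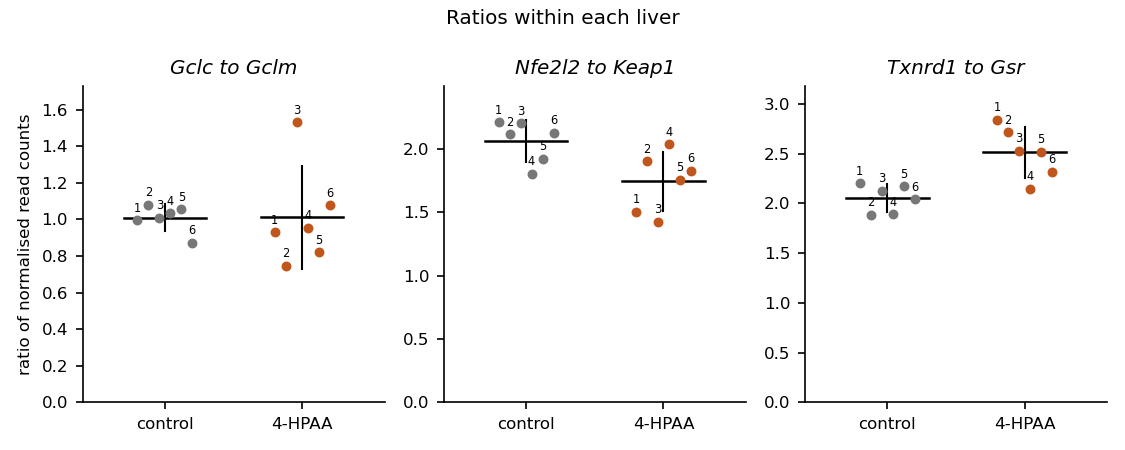
Ratio of normalised read counts (vertical axis, from 0) for 3 pairs of genes in each control (grey) and 4-HPAA (orange) liver, with replicate numbers, means and SD. Txnrd1 to Gsr was above every control in 5 of 6 4-HPAA livers, while Gclc to Gclm stood apart in 4-HPAA replicate 3 alone.

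Srxn1 (chromosome 2, 152105516 to 152111376, plus strand), sulfiredoxin, which repairs overoxidised peroxiredoxins, was not distinguishable between the groups. Control values were 847, 878, 1074, 1088, 1396 and 723, and 4-HPAA values 754, 780, 1186, 941, 779 and 850. Replicate 5 was highest among controls and replicate 3 among 4-HPAA livers, and every 4-HPAA value lay within the control range. The log2 difference was -0.17 ± 0.15 (SE; limma adjusted p of 0.646). It was -0.07 without control replicate 5 and -0.26 without control replicate 6 or 4-HPAA replicate 3.

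To compare levels between members, values were divided by the merged exon length of each gene. This takes each value as a count of the whole gene, which is not established. Keap1, Gsr, Txnrd1 and Hmox1 stand under IDs of non-coding isoforms, so their places in the order could differ. In controls Gclc was the highest at 1342 ± 155 normalised counts per kilobase, followed by Osgin1 at 926 ± 217 and Gclm at 795 ± 45.9 (SD, n = 6). Nfe2l2 (596 ± 51.7), Gsr (555 ± 31.6) and Txnrd1 (443 ± 32.5) formed the middle. Srxn1 (355 ± 84.7), Keap1 (234 ± 17.9), Hmox1 (213 ± 72.7) and Nqo1 (127 ± 38.5) were the lowest. Of neighbours in this order, the mean ± SD ranges overlapped between Osgin1 and Gclm, Nfe2l2 and Gsr, Txnrd1 and Srxn1, Keap1 and Hmox1, and Hmox1 and Nqo1. With 4-HPAA the per-kilobase mean of Osgin1, 1742 ± 617, stood above that of Gclc, 1328 ± 194, with overlapping ranges, and the means of the other 8 kept their order. Spread within groups also differed between members: the coefficient of variation in controls was 5.69% for Gsr and 5.78% for Gclm but 30.4% for Nqo1 and 34.1% for Hmox1.

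From mouse to mouse, most pairs of members were only weakly related. After the mean of its group was taken from each log2 value, the median Pearson r over the 45 pairs of members was 0.12 across the 12 libraries, with 29 pairs above 0. The highest pair was Keap1 and Srxn1 (r = 0.79, Spearman rho = 0.61, and r = 0.53 without the 2 libraries farthest from the Keap1 median). Nqo1 was next, with Gsr (r = 0.70, rho = 0.60, 0.62 without 2) and with Srxn1 (r = 0.68, rho = 0.77, 0.53 without 2). Nqo1 with Nfe2l2, its activator, had r = 0.61 and rho = 0.60, and 0.36 without 2 libraries. Osgin1 ran against Gclm (r = -0.73, rho = -0.47), which rests on the extreme libraries, since r was -0.15 without 2. These values share libraries, depth and scaling and are given as a description.

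The genes most like each member by the same measure, among 11182 genes with a mean of at least 25, were as follows. Osgin1 was closest to Syt7, a synaptotagmin of membrane fusion (r = 0.92, rho = 0.82), and Ptges2, a prostaglandin E synthase (r = 0.90, rho = 0.93). Nqo1 was closest to the transporter gene Slc16a5 (r = 0.97, rho = 0.94) and Sh2d4a (r = 0.97, rho = 0.90), and Txnrd1 to Timm29 of mitochondrial protein import (r = 0.92, rho = 0.95) and the metalloproteinase Mmp19 (r = 0.87, rho = 0.88). For Hmox1 they were 2 leukocyte genes, the interleukin-10 receptor Il10ra (r = 0.94, rho = 0.96) and the integrin activator Fermt3 (r = 0.94, rho = 0.91). Nfe2l2 was nearest to Klhl5 (r = 0.85, rho = 0.78, but r = 0.62 without 2 libraries) and the ADP/ATP carrier Slc25a5 (r = 0.85, rho = 0.85). The others were Ehd1 and Sept9 for Keap1, Chst15 and Arl4a for Gclc, Nfia and Klhl13 for Gclm, Cers6 and Trp53i11 for Gsr, and Tlr5 and Dab2ip for Srxn1, with r from 0.90 to 0.98. Without the 2 farthest libraries r was 0.81 to 0.97 for all of these genes but Klhl5. All are the top of a search through many genes over 12 libraries that share depth and scaling, and are a description only.

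Around the members, 79 further genes of the pathway were listed by role in 6 lists. Of these, 75 were in the table and were tested, with 28 at positive and 47 at negative differences (all genes: 49.8% and 50.2%) and a median of -0.10. None passed an adjusted p of 0.05 in limma. An unadjusted p under 0.05 was found for 13 of 75, a share near the 14.8% of all genes, with 1 higher and 12 lower (all genes: 7.26% and 7.56%).

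Regulators of NRF2 stood near zero. None of 14 (Rxra was not in the table) had an unadjusted p under 0.05, and their median log2 difference was 0.03. Those with the smallest p were Btrc, which marks NRF2 for degradation apart from KEAP1 (0.18 ± 0.09, SE), Dpp3, a protein that competes with NRF2 for KEAP1 (0.15 ± 0.09), Nploc4 (0.11 ± 0.08), a cofactor of the segregase VCP, and the small MAF protein Maff (-0.45 ± 0.43). The ligase scaffold Cul3 was at -0.13 ± 0.16, with 804 normalised counts in 4-HPAA replicate 3 and 1526 to 1745 in the other 11 livers. The other glutathione and thioredoxin genes stood near zero too, with 0 of 9 at an unadjusted p under 0.05 in limma and a median of 0.02. Their smallest p belonged to Ggct (-0.11 ± 0.10), Prdx6 (0.06 ± 0.08), Sesn2 (-0.15 ± 0.22) and Glrx (0.05 ± 0.08), and thioredoxin itself, Txn1, averaged 4497 ± 234 and 4559 ± 424 (SD, n = 6 each).

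The list of NADPH supply, which both reductases draw on, held 6 genes, among them Tkt and Taldo1, whose enzymes do not form NADPH themselves. Of the 6, 5 had negative differences (all genes: 50.2%) and 1 had an unadjusted p under 0.05 in limma (all genes: 14.8%). Me1, the cytosolic malic enzyme, which is also a lipogenic gene, had a control mean of 5347 ± 1344 and a 4-HPAA mean of 3478 ± 1364 (SD over 6 livers). Me1 thus differed by -0.67 ± 0.23 on the log2 scale (SE; limma adjusted p of 0.216). Tkt (-0.16 ± 0.11), Idh1 (-0.10 ± 0.09) and G6pdx (-0.14 ± 0.13) followed. The iron and heme genes had a median of -0.18 over 7 genes, with 0 at an unadjusted p under 0.05 in limma. That median was -0.06 without 4-HPAA replicate 3, -0.08 without 4-HPAA replicate 2 and -0.08 with array weights. The ferritin chains Fth1 (-0.26 ± 0.14) and Ftl1 (-0.24 ± 0.14), Blvrb (-0.18 ± 0.13) and the iron exporter Slc40a1 (-0.26 ± 0.24) had the smallest p.

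The conjugation and export genes linked to NRF2 were the list farthest from zero. This list also holds enzymes that neither conjugate nor export, among them Ces1g, Ephx1, Cbr1, Cbr3, Aox1 and Cyp2a5. Of 23, 19 were at negative differences, 9 lower and 1 higher had an unadjusted p under 0.05 (all genes: 7.56% and 7.26%), and the median was -0.35, ranging from -0.40 to -0.23 over all alternatives. Gstp1, a glutathione transferase, went the other way: its mean was 12270 ± 2979 in controls and 33577 ± 12123 in 4-HPAA livers (SD over 6), every 4-HPAA liver lay above every control, and the log2 difference was 1.40 ± 0.24 (SE; limma adjusted p of 0.103). On the lower side were Abcc3, a basolateral exporter of conjugates (-0.74 ± 0.21), the glutathione transferase Gstm3 (-0.96 ± 0.30) and the carboxylesterase Ces1g (-0.45 ± 0.16), with limma adjusted p of 0.184, 0.199 and 0.217. Transferase genes lie in clusters of close copies, so the authors' counting could divide reads between them.

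Antioxidant enzymes outside this core set were near zero as a list, with a median of -0.05 over 16 genes, 5 positive and 11 negative. Unadjusted p under 0.05 was found for 2 of 16, no larger a share than the 14.8% of all genes, and both were lower: Gpx3, the plasma glutathione peroxidase (-0.50 ± 0.16), and Gpx4, which reduces lipid peroxides in membranes (-0.37 ± 0.14), with limma adjusted p of 0.206 and 0.237. Mitochondrial Prdx3 (-0.13 ± 0.06) and extracellular Sod3 (-0.40 ± 0.20) came next. In the same livers markers of stellate cells and fibroblasts were all at negative differences (8 of 8, median -0.63, summed values of 6354 to 9750 in controls and 4038 to 7692 with 4-HPAA). Both adipocyte markers in the table, Cfd and Fabp4, were also lower, with sums of 469 to 1479 and 150 to 623, while Adipoq, Plin1 and Lep were not in it. The part of these cells in the values of the members and lists was not tested.

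**Figure D4:**
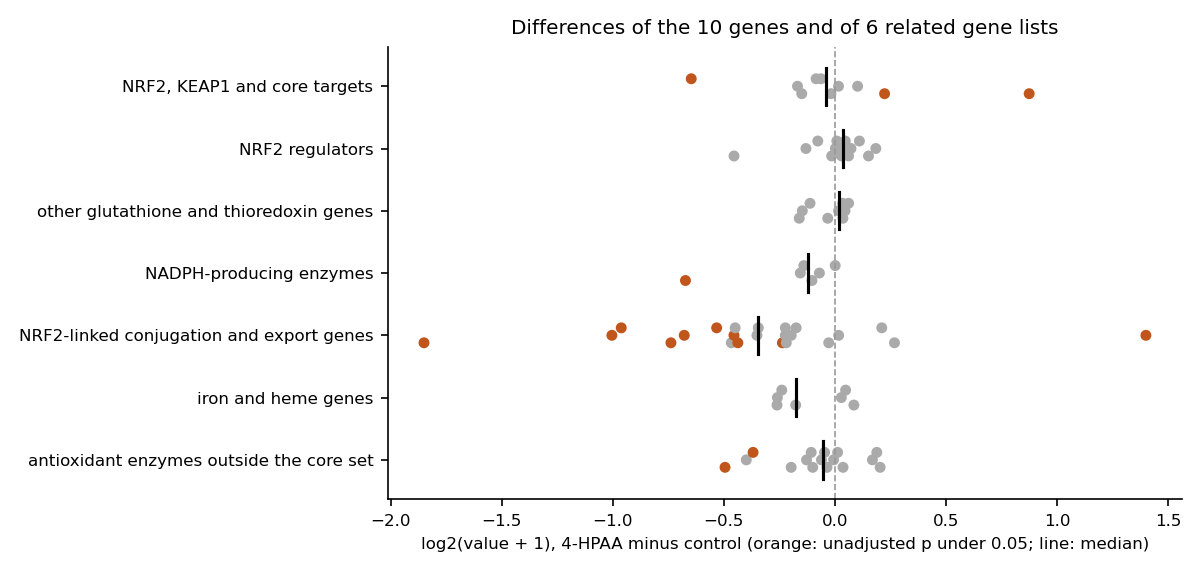
Log2 difference, 4-HPAA minus control (horizontal axis), of each tested gene in the core set and in 6 related lists (rows), with the median of each as a line and genes of unadjusted p under 0.05 in orange. Such genes number 2 higher and 1 lower in the core set, and 1 higher and 9 lower in the conjugation and export list.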

How the data were processed

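RNA of 12 liver samples was sequenced from directional TruSeq mRNA libraries, per the labels' protocols. Tools listed in the submitters' processing notes, without roles, are STAR, HTSeq, cutadapt, edgeR, DESeq2 1.28.1 and FastQC 0.11.9, with the build GRCm38. Annotation release and strand setting are not given there. The deposited values are a score: whole numbers that appear to be read counts scaled with 1 factor per library and rounded. Low whole numbers are missing or doubled at regular spacing, from which factors of 0.849 to 1.13 were estimated, and the smallest value is 2. IDs were named from GENCODE M21 (13203 of 13267), which also gave coordinates and exon lengths.

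Genes with at least 10 in at least 6 libraries were tested with limma 3.58.1 (R 4.3.3; trend and robust) on log2(value + 1), two-sided, with Benjamini-Hochberg adjustment over all 12720 genes and a threshold of 0.05. A positive difference means higher with 4-HPAA, and the scale understates changes of low genes. Because the values appear to be scaled, no count test was run. Ratios used exact permutation over 924 splits, where the smallest possible p is 0.00216. All members are named, with up to 4 genes of smallest p per list and 2 genes most like each member. Cul3, Txn1 and marker genes were named after their values were seen. Sequences are from RefSeq. The members and lists were chosen with earlier results of these data known. Alternatives were scalings, pseudocounts, filters, eBayes settings, array weights, a replicate block and leaving out each library. Figures used matplotlib 3.10.9 in Python 3.11.15.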

Additional observations from a re-analysis of the deposited data

Results flagged for a closer look

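Of 26 groups of 6 values examined for a single distant sample (10 genes and 3 ratios in 2 groups), 1 held one, where chance gives about 1 in 20. It was Gclm in 4-HPAA replicate 3, at 3290 normalised counts, where the nearest of the other 4-HPAA livers was at 5096 and the gap made up 0.718 of the range. The same library had the highest Osgin1 and Keap1 and the lowest Gsr of all 12, and was the least like the others over all genes.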

How the results depend on the processing

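Under 22 alternatives, 7 of 10 members kept the sign of their difference and 9 passed the threshold under none. The exceptions in sign lay near zero. Gclc turned positive when control replicate 2 or 4 or 4-HPAA replicate 2 or 5 was left out (range with 1 library left out -0.085 to 0.025). Gclm turned negative with upper-quartile scaling (-0.0080), with scaling to the library total (-0.014) and without control replicate 6 or 4-HPAA replicate 2, 4 or 6 (range -0.024 to 0.14). Hmox1 turned positive with array weights (0.017) and without control replicate 6 (range -0.20 to 0.045). Osgin1 passed with array weights (0.84) and without 4-HPAA replicate 4 (0.99). Of the medians of the 6 lists, 0 of 132 moved by more than the median standard error of the genes in the list, though that of the other glutathione and thioredoxin genes ran from -0.029 to 0.043 and that of the iron and heme genes from -0.23 to -0.060. The count of genes past the threshold, 0 in limma (1886 at an unadjusted p under 0.05), became 139 with array weights and 0 to 193 with 1 library left out, being 193 without 4-HPAA replicate 4 and 5 without control replicate 1. With 1 library left out, the log2 ratio of Gclc to Gclm differed by -0.16 to 0.045, that of Nfe2l2 to Keap1 by -0.30 to -0.20, past the threshold in 5 of 12, and that of Txnrd1 to Gsr by 0.25 to 0.33, past it in all 12.

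The replicate number as a block gave 11 genes past the threshold and no member. With exact sign flips within pairs of equal number, the Nfe2l2 to Keap1 difference of -0.25 had an adjusted p of 0.188 and the Txnrd1 to Gsr difference of 0.29 one of 0.0938. The latter rests on an exact p of 0.03125, the smallest that sign flips of 6 pairs can give, so the threshold was hardly within reach. Labels do not say that numbers mark a shared cage or day, and deviations of same-numbered livers correlated above 0.1 for 3 of 6 numbers (-0.18 to 0.28). Of the control libraries, 3 of 6 were most like the 4-HPAA library of their own number. These values do not settle whether the numbers mark pairs, and the main tests did not take them as pairs.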
